A study of Mus musculus with 2 samples.

Results

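The miR-29 family of the mouse is made by 4 genes, and all 4 had counts in both small RNA libraries of the series. Members were found by name: Mir29a, Mir29b-1, Mir29b-2 and Mir29c of the M21 gene annotation were looked up among the 2202 miRNA genes of the count tables, and 4 of 4 matched. Mir29a and Mir29b-1 lie side by side on chromosome 6, and Mir29b-2 and Mir29c on chromosome 1, so the family has 2 clusters with 1 copy of miR-29b in each. The series holds 1 group: hippocampus (labelled as a layer of hippocampus) of adult females of strain 5xFAD/CAST at 8 to 10 months, from which RNA below 30 nt was sequenced. 5xFAD is a transgenic mouse model of amyloid deposition, with expression driven by the neuronal Thy1 promoter, and CAST is the common name of a wild-derived inbred mouse strain. The labels name both libraries biological replicates and give each a biosample entry of its own, but list both under a single donor entry. They do not describe the transgenes, and no control genotype is analysed here. The p-values below thus ask only whether these 2 libraries lie farther apart than counting error, and depend on depth.

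MicroRNAs are cut from hairpin transcripts and guide Argonaute to messenger RNAs that pair with their seed, bases 2 to 8 of the mature strand. Each hairpin can give a strand from either arm, named 5p and 3p, and in this family the 3p strand is the one known as miR-29. The family is known for repressing collagens and other matrix proteins, the DNA methyltransferases Dnmt3a and Dnmt3b, and pro-apoptotic BH3-only genes in maturing neurons. In brain it is also known as a regulator of Bace1, the beta-secretase that makes the first cut in the release of amyloid-beta.

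The 3p strands are shown because they carry the family's common seed and show where the members can and cannot be told apart. Sequences are those of RefSeq for GRCm38.p6, 5′ to 3′, with the seed in capitals, and 4 of 4 members matched that table.
miR-29a-3p: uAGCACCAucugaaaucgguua
miR-29b-3p, from both Mir29b-1 and Mir29b-2: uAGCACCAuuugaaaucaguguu
miR-29c-3p: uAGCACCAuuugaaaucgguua

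All share the seed AGCACCA, and of the 1738 mature strands from 1058 genes in the RefSeq table only those of the 4 members have it at bases 2 to 8. Counted from the 5′ end, miR-29c-3p and miR-29a-3p differ at 1 of 22 positions (U10C, with the base of miR-29c first). miR-29b-3p is 23 nt long and differs from miR-29c-3p at 3 of the first 22 positions (A18G, G21U and U22A, with the base of miR-29b first). These strands have their first 17 bases in common. The strand of miR-29b is the same from both of its genes, so a read of it fits chromosome 6 and chromosome 1 equally well.

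The 5p strands, again with bases 2 to 8 in capitals, have no common seed.
miR-29a-5p: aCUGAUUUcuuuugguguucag
miR-29b-1-5p: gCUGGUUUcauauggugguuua
miR-29b-2-5p: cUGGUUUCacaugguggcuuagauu
miR-29c-5p: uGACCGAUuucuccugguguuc

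The 5p strands of the miR-29b copies are not identical, and their longest common run is 9 bases. Between the hairpins of the copies the longest common run is 25 bases, and it contains the whole 3p strand. Between the hairpins of Mir29a and Mir29c the longest common run is 14 bases. Mir29a and Mir29c thus differ in both strands from each other and from the copies of miR-29b, while the copies differ in the 5p strand alone. The deposited counts are per gene and sum the arms, so the strand behind a count is not known from these data. For the copies of miR-29b, a read that lies wholly within the common 25 bases cannot be placed on a single copy. Their counts may therefore hold another mix of strands than those of Mir29a and Mir29c, which was not tested.

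In mm10 coordinates Mir29a (ENSMUSG00000065610.1) is at chr6:31062660-31062747 and Mir29b-1 (ENSMUSG00000065604.2) at chr6:31063023-31063093, both on the minus strand with 275 bases between them. Mir29a overlaps no other annotated gene, and 2 bases of Mir29b-1 fall in the exon of the long non-coding gene Gm27019 on the same strand. Mir29b-2 (ENSMUSG00000065412.3) is at chr1:195037040-195037120 and Mir29c (ENSMUSG00000065548.1) at chr1:195037547-195037634, both on the plus strand with 426 bases between them. A330023F24Rik, a non-coding gene on the same strand, contains both in an exon of a transcript annotated as a retained intron. On the opposite strand both also fall in a UTR of Cd46, which encodes a complement regulator, but antisense counts of the 4 members were 0 in both libraries except for 1 count at Mir29b-2 in replicate 2.

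Replicate 1 held 9962659 reads and replicate 2 held 12761689, of which 3135960 and 4377622 were counted on the sense strand of a miRNA gene. Levels are given in CPM, a gene's count scaled to the assigned counts of its library. Reads that mapped to several places stand in a line of their own, 36.3% of replicate 1 and 41.7% of replicate 2, outside every gene count. A count of 0 would allow up to 0.957 and 0.685 CPM, well below each member. Intervals are exact Clopper-Pearson intervals at 95% and cover counting error only, since PCR copies are not separate molecules.

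Mir29a carried most of the family's counts. It had 45616 counts in replicate 1 and 97424 in replicate 2, or 14546 CPM (14414 to 14679) and 22255 CPM (22117 to 22394), a mean of 18401 ± 5451 CPM (SD, n = 2). The gene ranked 11 of 2202 in replicate 1 and 10 in replicate 2. Mir29c, the leading gene of the other cluster, had 4643 and 9838 counts, or 1481 CPM (1438 to 1524) and 2247 CPM (2203 to 2292), a mean of 1864 ± 542 CPM. Its rank was 77 in replicate 1 and 54 in replicate 2. Both genes were lower in replicate 1, by far more than their counting intervals.

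The copies of miR-29b stood near 100 CPM or below in each library. Mir29b-1 had 212 and 304 counts, or 67.6 CPM (58.8 to 77.3) and 69.4 CPM (61.9 to 77.7), a mean of 68.5 ± 1.30 CPM (SD, n = 2). Its SD was smaller than its counting error, and the intervals of the libraries overlapped. Mir29b-2 had 173 and 432 counts, or 55.2 CPM (47.3 to 64.0) and 98.7 CPM (89.6 to 108), a mean of 76.9 ± 30.8 CPM. The means of the copies differed by less than the SD of Mir29b-2.

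**Figure D1:**
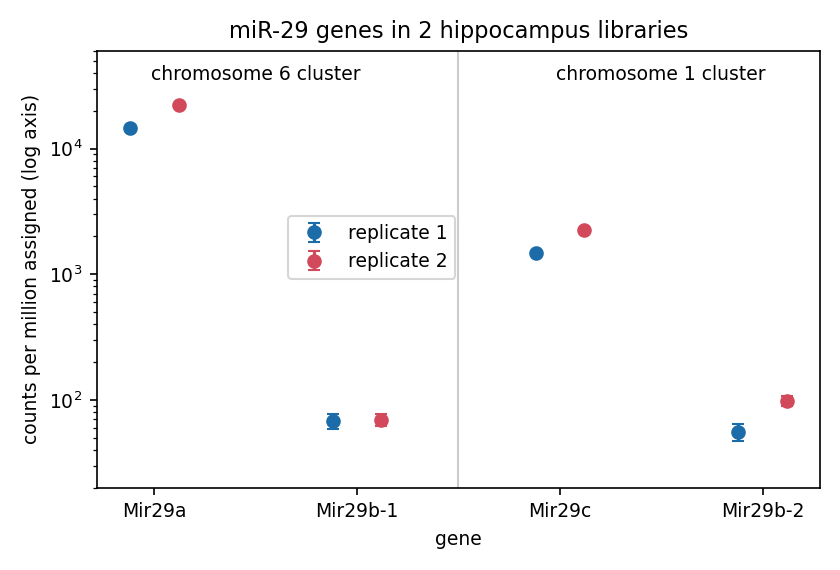
Level of each miR-29 gene in CPM (log axis) in replicate 1 and replicate 2, with exact 95% counting intervals, which are smaller than the points for Mir29a and Mir29c. Mir29a is highest at 14546 and 22255 CPM, Mir29c follows at 1481 and 2247 CPM, and both miR-29b genes lie between 55.2 and 98.7 CPM.

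Together the 4 genes held 1.61% of the assigned counts in replicate 1 (1.60% to 1.63%) and 2.47% in replicate 2 (2.45% to 2.48%), or 2.04% ± 0.603 (SD, n = 2). Within the family the shares of the leading genes were nearly the same in each library, and those of the miR-29b copies were not. Mir29a supplied 90.1% (89.8% to 90.3%) and 90.2% (90.0% to 90.4%) of the family's counts. Mir29c supplied 9.17% (8.92% to 9.42%) and 9.11% (8.94% to 9.28%). Both copies of miR-29b together supplied 0.760% (0.686% to 0.840%) and 0.681% (0.633% to 0.732%). Of these, Mir29b-1 supplied 0.419% (0.364% to 0.479%) and 0.281% (0.251% to 0.315%), with intervals that did not overlap. The share of Mir29b-2 had intervals of 0.293% to 0.396% and 0.363% to 0.439%, which overlapped, and was the higher in replicate 2.

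The ratio between the clusters was the same in each library within counting error, although the family's level was not. Summed over its 2 genes, the chromosome 6 cluster was at 14614 and 22324 CPM and the chromosome 1 cluster at 1536 and 2346 CPM. The ratio was 9.52-fold (9.24 to 9.80) in replicate 1 and 9.52-fold (9.32 to 9.71) in replicate 2. Between the leading genes alone, Mir29a over Mir29c was 9.82-fold (9.53 to 10.1) and 9.90-fold (9.70 to 10.1), or 3.30 ± 0.0081 on the log2 scale (SD, n = 2). This ratio, too, differed between the libraries by less than its counting intervals.

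Within a cluster the partners were far apart in level, and by different factors. On chromosome 6, Mir29a exceeded Mir29b-1 by 215-fold (188 to 247) in replicate 1 and 320-fold (286 to 360) in replicate 2, or 8.04 ± 0.41 on the log2 scale (SD, n = 2). The intervals of the libraries did not overlap. On chromosome 1, Mir29c exceeded Mir29b-2 by 26.8-fold (23.1 to 31.4) and 22.8-fold (20.7 to 25.1), or 4.63 ± 0.17 on the log2 scale. Here the intervals overlapped. These factors compare counts per gene, which leave out multimapping reads, and are not ratios between mature strands.

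The order of the miR-29b copies was not the same in the libraries. Mir29b-1 over Mir29b-2 was 1.23-fold in replicate 1, with an interval of 0.998 to 1.51 that includes equal counts. In replicate 2 it was 0.704-fold (0.606 to 0.817), with Mir29b-2 the higher. On the log2 scale this was 0.29 and -0.51, a mean of -0.11 ± 0.57 (SD, n = 2), so the copies cannot be ranked from these libraries. Reads of the common 3p strand cannot be placed on a single copy, and what share of them stands in the line of multimapping reads was not tested.

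**Figure D2:**
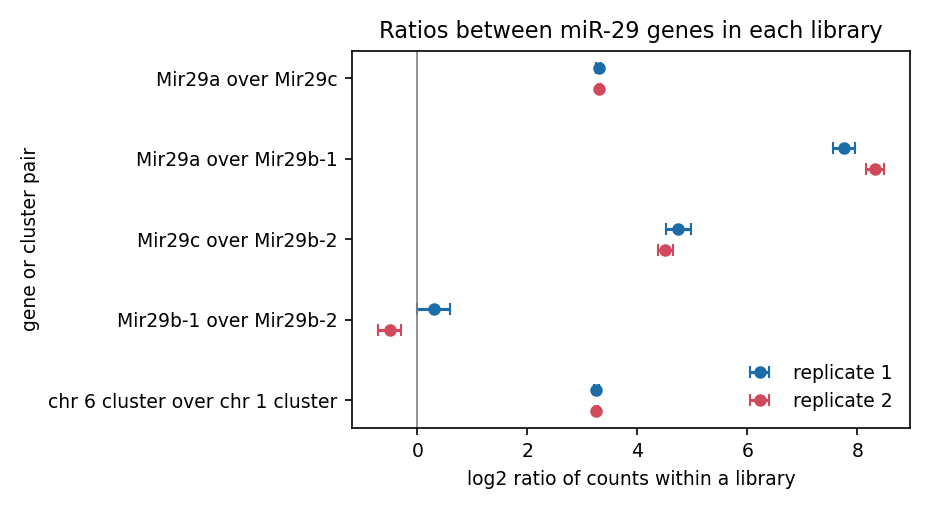
Log2 ratio of counts for 5 pairs of miR-29 genes or clusters within replicate 1 and replicate 2, with exact 95% binomial intervals; 0 means equal counts. Mir29a over Mir29c and cluster over cluster coincide between the libraries near 3.30 and 3.25, while Mir29b-1 over Mir29b-2 lies on both sides of 0, at 0.29 and -0.51.

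Next the libraries were compared gene by gene, with library sizes scaled by TMM (trimmed mean of M values) and an exact two-sided binomial test whose null is counting error alone. Of 501 genes with at least 10 counts over both libraries, 259 (51.7%) were called at an adjusted p under 0.05, and 136 (27.1%) were called lower in replicate 1. Among the members 3 of 4 were called, all 3 lower in replicate 1. With the test limited to the 301 genes with at least 100 counts over both libraries, as each member has, 227 were called. That share, for calls in either direction, is like the share of the members. The share called lower in replicate 1 among these 301 genes is not given here. Mir29a was at 0.670 of its replicate 2 level (interval 0.663 to 0.678), with an adjusted p too small to be represented. Mir29c was at 0.675 (0.652 to 0.699, exact binomial test, Benjamini-Hochberg adjusted p = 4.53e-111). Mir29b-2 was at 0.573 (0.478 to 0.685, same exact test, adjusted p = 7.57e-10). Mir29b-1 was at 0.998 (0.833 to 1.19, same exact test, adjusted p = 1.0) and was the member whose level was not called different.

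By size, 187 of the 501 genes (37.3%) differed by over 1.5-fold, 5 of which had 0 counts in 1 library and so no measured ratio. Mir29b-2 was the 1 member past that mark, at 1.74-fold, while Mir29a at 1.49-fold and Mir29c at 1.48-fold lay just inside it. With assigned counts as library sizes, in place of TMM, their log2 ratios were -0.61 and -0.60, just past the mark, so their side of it depends on the scaling. Among the 301 genes with at least 100 counts over both libraries the median absolute log2 ratio was 0.34. Of these genes, 27.6% had a wider ratio than Mir29a, 28.2% than Mir29c, 18.6% than Mir29b-2 and 98.3% than Mir29b-1. The members' differences between the libraries thus lie within the range of many other genes.

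Mir29a and Mir29c were nearly equal in this respect, their log2 ratios between libraries differing by 0.011. Of 136 other genes with at least 1000 counts in each library, 1 was nearer to Mir29a, Mir30e at a log2 ratio of -0.57. The median distance of these genes from Mir29a was 0.60 on the log2 scale. This measure and that gene were chosen after the values were seen, and with 2 libraries it rests on a single ratio per gene.

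**Figure D3:**
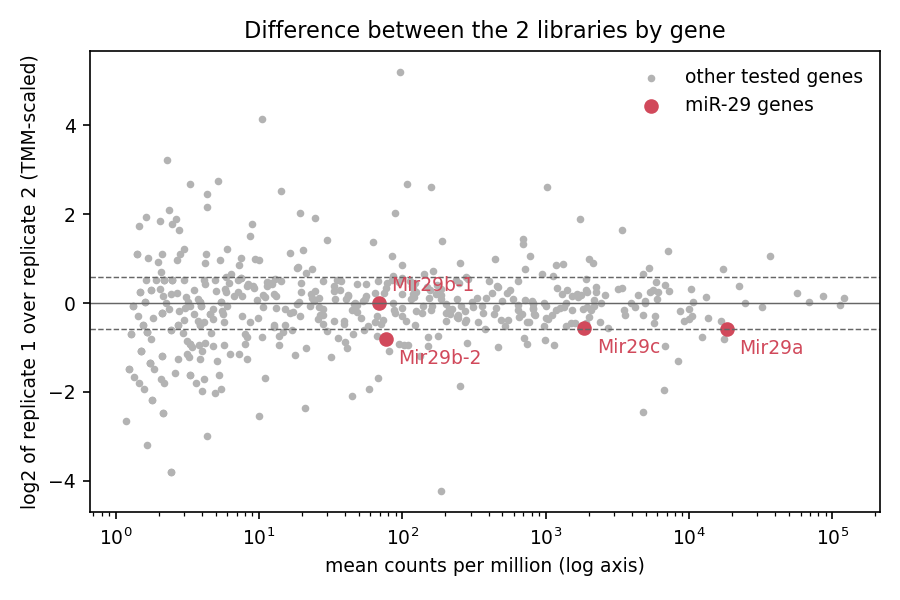
Log2 of replicate 1 over replicate 2 after TMM scaling against mean CPM (log axis) for the tested genes with counts in both libraries; dashed lines mark 1.5-fold. Mir29a, Mir29c and Mir29b-2 lie below 0, at -0.58, -0.57 and -0.80, and Mir29b-1 lies on the line of no difference.

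Markers of several cell types also differed between the libraries, in both directions. Neuronal miRNAs were present, which does not tell the hippocampus from other brain regions. Of 9 listed genes, 6 had at least 10 counts in each library. The list summed to 35946 and 34288 CPM in replicates 1 and 2. The sum hides opposite differences: Mir132, the highest of the list, was at 21687 and 13106 CPM, while Mir128-1 was at 4545 and 9069, Mir137 at 4757 and 6655 and Mir128-2 at 1116 and 1649 CPM. Of the list's 7 tested genes, 4 were called lower in replicate 1, as 3 of the members were, and 2 higher, with a median log2 ratio of -0.45. The 3 genes under 10 counts in a library were the copies of Mir124a. Multimapping reads stand outside these counts. Low counts of genes listed in several copies, as Mir124a and Mir9 are, thus do not show that the miRNA was scarce. Mir126a, the endothelial marker and the gene just below Mir29a in mean level, was at 12521 and 22475 CPM, lower in replicate 1 as Mir29a was. The mural cell list of 2 genes, both detected, summed to 8170 and 6864 CPM. The choroid plexus list of 3 genes, all detected, summed to 2938 and 1052 CPM, and the astrocyte list of 4 genes, 3 detected, to 5263 and 1768 CPM, most of it from Mir21a. The oligodendrocyte list of 3 genes, all detected, was at 6799 and 6685 CPM. This sum, too, hides opposite differences, with Mir219a-2 at 3298 and 3783 CPM and Mir338 at 3496 and 2897 CPM. The microglial and myeloid list of 3 genes, all detected, was at 460 and 479 CPM. Markers of red blood cells, liver and striated muscle summed to at most 78.4 CPM a list, and 4 of the 5 muscle genes were at 0. The part of cell makeup in the members' differences was not tested, and in bulk tissue fewer cells of a type and less RNA per cell cannot be told apart.

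The gap between partners in a miR-29 cluster was set beside other clusters that pair a gene without further copies with a gene that has them, by symbol. Genes within 10000 bp on 1 strand were taken as a cluster, and 26 such mixed clusters had counts. In 21 of 26 the genes without further copies summed to the higher level, with a median log2 difference of 3.02 on the log2(CPM + 1) scale. Without the miR-29 clusters it was 19 of 24 with a median of 1.62, and 16 of 19 with a median of 4.63 among those with at least 10 CPM in all. Mir202 with mmu-mir-7686, at 1.18, is among the 26 and the 24 only through the form of a symbol. The number in mmu-mir-7686 is not a copy number. The pair lies below the medians of the 26 and the 24, which would be higher without it. At 1.76 CPM in all, it is outside the 19. The miR-29 clusters were at 8.02 for Mir29a with Mir29b-1 (7.73 and 8.30 in replicates 1 and 2) and 4.61 for Mir29c with Mir29b-2 (4.72 and 4.50). Of the other 24 clusters, 10 had a wider gap in the same direction than Mir29c with Mir29b-2. Mir26a-2 with Mir546 was at -6.08, wider in size and in the other direction. In some of the 10 the genes with copies were at or near 0 CPM, such as Mir199a-2 beside Mir214. There the added 1 CPM limits the difference.

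Among the 5 mixed clusters of highest level, that of Mir29a was the fifth. The other four were Mirlet7b with Mirlet7c-2 at a log2 difference of 6.43, Mirlet7d with Mirlet7a-1 and Mirlet7f-1 at 6.08, Mir99a with Mirlet7c-1 at 5.35, and Mir23b and Mir27b with Mir24-1 at 9.31. The gap in the Mir29a cluster was thus wider than in 3 of these and narrower than in the cluster of Mir23b. Multimapping reads stand outside the gene counts, how many of them came from the genes with copies is not known from these tables, and their part in these gaps was not tested.

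**Figure D4:**
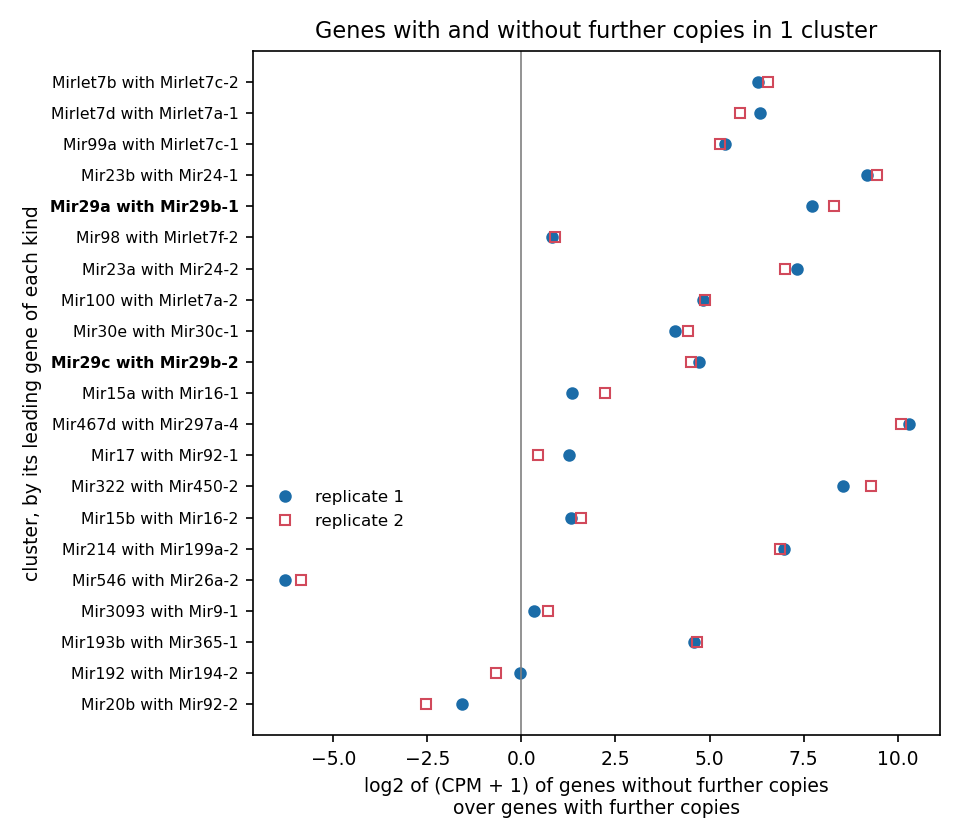
Log2 difference, on the CPM + 1 scale, between genes without and with further copies in each mixed cluster of at least 10 CPM, for replicate 1 (filled) and replicate 2 (open), ordered by summed level. Most clusters lie right of 0, and the miR-29 clusters (bold) are at 7.73 and 8.30 for Mir29a with Mir29b-1 and at 4.72 and 4.50 for Mir29c with Mir29b-2.

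The copies of miR-29b were also set beside genes of the same sequence type. RefSeq lists both arms for 657 of the counted genes, and in 57 of these, as in Mir29b-1 and Mir29b-2, exactly 1 arm is identical to an arm of another gene. In these 57 genes the median level was 24.7 CPM (upper quartile 243), and 38 had at least 10 counts in each library. Mir29b-1 and Mir29b-2 lay in the upper part of this set, with 22 and 21 of the 57 genes above them. In 581 genes with no identical arm, as in Mir29a and Mir29c, the median was 2.19 CPM (upper quartile 94.8). In 19 genes with both arms identical to others the median was 0 CPM, and 3 were detected.

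By mean level the members stood beside genes from which they did not differ beyond their spread. Mir29a was between Mir99a at 22178 ± 3726 CPM and Mir126a at 17498 ± 7038 CPM (SD, n = 2). Mir99a was higher than Mir29a in replicate 1 and lower in replicate 2, at 24813 and 19543 CPM. Mir29c was between Mir335 at 1903 ± 442 CPM and Mir342 at 1824 ± 159 CPM. Mir29b-2 was between Mir410 at 77.7 ± 15.5 and Mir130b at 76.7 ± 11.0 CPM, and Mir29b-1 between Snord43, listed as a miRNA gene in the annotation, at 71.4 ± 17.6 and Mir26a-2 at 67.3 ± 14.8 CPM. In each of these 8 pairs the gap was smaller than the larger SD of the pair. The neighbours were picked for nearness in mean level, so small gaps follow from the choice and test nothing. Likeness here is in level alone, over 2 libraries.

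Other miRNAs reported to act on Bace1 gave the same target's context. Of 28 such genes, all in the count tables, 21 had at least 10 counts in each library, and 1, Mir195b, had none. The copies of Mir124a and Mir9 in this list, 6 genes, also stand in the neuron and astrocyte lists above. All 28 genes together summed to 2.48% of the assigned counts in replicate 1 and 3.46% in replicate 2, or 2.97% ± 0.693 (SD, n = 2), against 1.61% and 2.47% for the 4 miR-29 genes. None of the 28 had a higher mean than Mir29a, and 4 had a higher mean than Mir29c: Mir328, Mir195a, Mir107 and Mir485. Multimapping reads are outside these counts, so the order and the sums describe counts per gene. They do not rank miRNAs made by several gene copies, such as those of Mir124a and Mir9. Mir328 was nearest to Mir29a, at 11803 and 15247 CPM (13525 ± 2435), below Mir29a in each library, and the means differed by less than the SD of Mir29a.

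Mir195a, of the miR-15 and miR-16 seed family, was at 1454 and 8125 CPM, above Mir29c in replicate 2 and close to it in replicate 1. Mir107 was at 2775 and 1535 CPM, above Mir29c in replicate 1 and below it in replicate 2. Mir485, of the imprinted chromosome 12 region, was at 1934 and 2215 CPM, and Mir342 at 1712 and 1937 CPM. Mir15a followed at 761 and 1509 CPM. Between the libraries 9 of the 25 tested genes of the list were called lower in replicate 1 and 8 higher (exact binomial test, adjusted over all 501 genes), against 136 lower and 123 higher among all tested genes. The list's median log2 ratio was -0.098 and that of all tested genes -0.054.

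**Figure D5:**
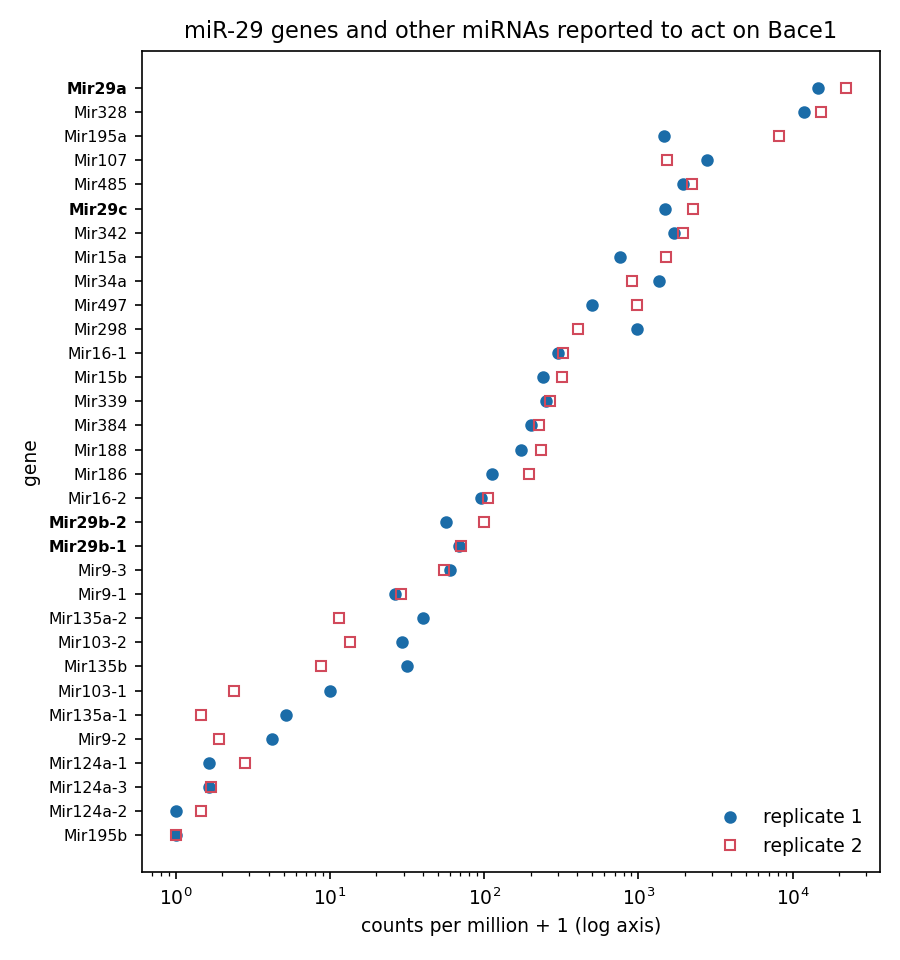
CPM + 1 (log axis) in replicate 1 (filled) and replicate 2 (open) for the 4 miR-29 genes (bold) and 28 other miRNA genes reported to act on Bace1, ordered by mean level. Mir29a is at the top with Mir328 next, Mir29c is sixth, and both miR-29b genes lie in the lower part of the detected genes.

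Seed matches show what the common seed can pair with, since the levels of target messenger RNAs were not measured. The match of the seed, TGGTGCT, was searched on the sense strand of the region after the stop codon, in the longest such region of each of 21020 coding genes of the M21 annotation. It was found in 2755 of them (13.1%). Bace1 has 1 match in 4104 bases (ENSMUST00000034591.10, plus strand), shown with its flanks and with the match in capitals, at chr9:45862033-45862039.
Bace1 site: tccttgccctcgcacTGGTGCTg

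Among genes whose region is within 10% of that length, 257 of 723 (35.5%) hold the match, so 1 match in a region of this length is common. Of 17 genes known as miR-29 targets, 16 had at least 1 match, with Grn, the progranulin gene, at 0. Those genes became known as targets partly through such matches, so this count is no independent evidence. Tet3, Tet1 and Tet2, which oxidise methylated DNA, had 8, 7 and 5 matches, and the methyltransferase gene Dnmt3a had 5. In genes with regions of like length, as many matches or more were found in 0.283%, 0.699%, 0.0925% and 0.901%. The other methyltransferase gene, Dnmt3b, had 1, and 13.2% of genes with regions of like length also had at least 1. The matrix genes Eln and Fbn1 had 3 and 2, and Col1a1, Col3a1 and Col4a1 had 1 each. For these collagen genes, 13.4%, 10.1% and 13.7% of genes with regions of like length also had at least 1. Of the BH3-only genes, Hrk had 3, Bbc3 had 2, and Bcl2l11 and Bmf had 1 each, which 37.5% and 32.6% of genes with regions of like length also had. A single match was thus common for these lengths. A match is a description of the sequence and not a measured site, and all 4 members have the same seed, so matches do not tell the members apart.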

How the data were processed

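The authors deposited 1 table of raw read counts per library, on mm10 with the M21 annotation per the deposited notes; the sources used here name no aligner or counter. The 3 count columns were read as unstranded, sense and antisense from their values: the sense column was the strand column with the larger total (93.4% and 91.9% of both). The 4 summary lines stayed out of library sizes and tests. CPM was computed over assigned sense counts.

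Across all genes, each pair of counts was tested with an exact binomial test against TMM-scaled library sizes (edgeR 4.0.16, R 4.3.3, factors 0.988 and 1.01). Benjamini-Hochberg adjustment was over the 501 genes with at least 10 counts. The test was checked on simulated counts with set fold changes, counting error alone and known library sizes. TMM scaling and further spread between libraries were outside that check. DESeq2 1.42.0 size factors were an alternative. Named genes are the members, their neighbours in mean level, up to 6 leading genes of the Bace1 list, and the 5 highest mixed clusters. Genes named outside that rule were chosen after their values were seen. They are Mir30e, Mir195b, and single genes of the marker lists, the target list and further mixed clusters. The members and lists were chosen with earlier results of these data known. The target list, the comparisons by identical arms and of ratios between libraries, and the seed search were added after the counts were seen. Intervals and tests were computed with scipy 1.17.1 (Python 3.11.15) and tables with pandas 2.3.3.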

Additional observations from a re-analysis of the deposited data

How the results depend on the processing

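With 1 group of 2 libraries no contrast between conditions and no paired analysis was possible. The family's share was 0.677% with all reads as denominator, against 2.04% of assigned counts. Without replicate 2 the mean log2 ratio of Mir29b-1 over Mir29b-2 turned to 0.29, and without replicate 1 it was -0.51. The ratio between the clusters, whose SD was near 0, was 3.25 on the log2 scale in unstranded counts and 3.25 with 0.5 counts added. The log2 difference of Mir29b-1 between libraries, -0.0030 as reported, was 0.051 with DESeq2 size factors and 0.0056 in unstranded counts, and was called under none of the 4 alternatives tried. For the other 3 members direction and call held under all 4. The number of genes called ranged from 227 to 267 over 5 alternatives, against 259. The alternatives do not all test the same genes: the 227 were among 301 genes with at least 100 counts, and the 259 among 501. The copies of miR-29b had the fewest counts, 173 to 432 a library, against at least 4643 for Mir29a and Mir29c. Ratios that include a single copy thus have the widest counting intervals. The part of multimapping reads in these low counts was not tested.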
